A study of Canis lupus familiaris with 12 samples.

Results

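The mitochondrial genome of the dog was described through the 37 rows of the deposited gene tables whose locus lies on chromosome M (build CanFam3.1, positions counted from 1), out of 24223 rows in each table. Membership was set by position only and by no measured value, though earlier results of these data were known when it was chosen. Total RNA of 2 heart tissues, left ventricle and mitral valve, had been sequenced in dogs with DMVD (degenerative mitral valve disease, in which the leaflets thicken and the valve leaks) and in control dogs. The DMVD ventricle group held 2 libraries, a Pomeranian aged 9 years and a Jack Russell Terrier aged 5, and the control ventricle group held 4, Hound mixes aged 3 years and a Beagle aged 8. The DMVD valve group held 3 libraries, the same Pomeranian and Beagles aged 16 and 17 years, and the control valve group held 3, Hound mixes aged 3 years and the Beagle aged 8. By the numbers in the titles, 3 control dogs and 1 DMVD dog gave both tissues. Diagnosis cannot be told apart from breed and age in either tissue.

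The vertebrate mitochondrial genome is a small circle, transcribed from both strands into long precursors that are cut into messenger, ribosomal and transfer RNAs. Its protein genes all encode core subunits of the respiratory chain or of the ATP synthase: the ND genes belong to complex I, CYTB to complex III, the COX genes to complex IV, and ATP6 and ATP8 to complex V. In most places short transfer RNA genes lie between the longer genes. Heart muscle is rich in mitochondria, and their transcripts are among its most abundant RNAs.

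Of the 37 rows, 13 carried the name of a protein gene and 24 had no name in the tables. The pair of long unnamed rows lies near the start of the circle, ENSCAFG00000022709 at positions 70 to 1023 and ENSCAFG00000022711 at positions 1091 to 2670, where the ribosomal RNA genes of vertebrates are found. A further 13 unnamed rows had a span of their own of 60 to 74 bases, the size of transfer RNA genes. They are called here by the last 3 digits of their identifier (719 for ENSCAFG00000022719). A total of 20 rows shared 8 listed spans, so that their own ends are not given. Overlapping or adjoining rows of this compact genome can share reads, and strand is not given, so rows on opposite strands cannot be told apart.

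Each table gives one value per group, read as FPKM (fragments scaled to the length of the row and to the size of the library), with no value per library. No spread between dogs could therefore be computed, and the depth is unknown. Log2 fold changes are DMVD over control. Each ± gives 1 standard error (SE), derived from the statistic in the authors' deposited table, and adjusted p is the authors' two-sided p after Benjamini-Hochberg adjustment over all tested rows of the tissue, called at 0.05. In the ventricle 425 of 13788 tested rows were called, 3.08% of them, with 1.92% higher and 1.16% lower in DMVD. In the valve 62 of 14810 were called, 0.419%, with 0.311% higher and 0.108% lower in DMVD. The median log2 fold change of all tested rows with a value above 0 in both groups was -0.04 in the ventricle and 0.05 in the valve.

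Many mitochondrial rows lacked a measured level in the control group or in both groups. The status HIDATA, which marks a locus with too many fragments to be handled, stood on 18 of the 37 rows in the ventricle and on 6 in the valve. Only 6 other rows of the ventricle table carried it, 24 of 24223 in all (0.0991%), and no other row of the valve table did (0.0248% in all). A 0 under this status is not a level. The ventricle control group was at 0 in all 18 such rows, and the ventricle DMVD group in 9 of them. The valve control group was at 0 in all 6 and the valve DMVD group in 5. A level in both groups and a test, status OK, were thus left for 1 of the 13 protein rows of the ventricle and 8 of the valve, and for 18 of the 24 unnamed rows of the ventricle. In the valve 23 unnamed rows were tested, of which one, row 710, was listed at 0 in DMVD.

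**Figure D1:**
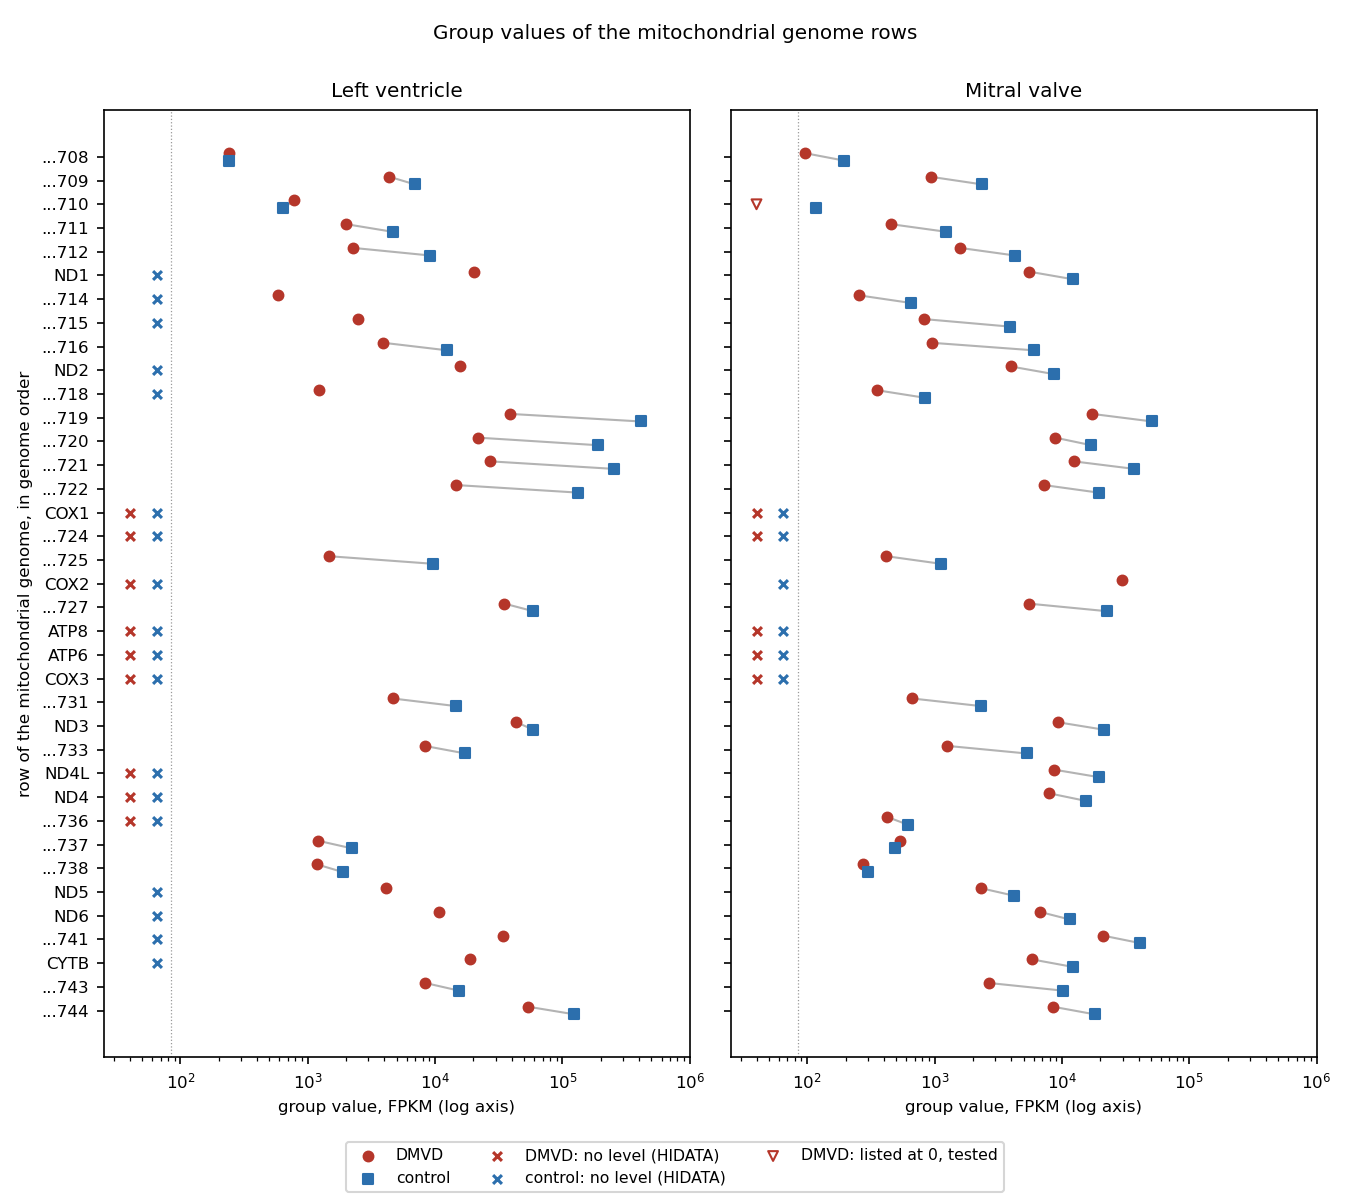
Group values of all 37 rows in genome order, in FPKM on a log axis, for DMVD (circles) and control (squares) in the left ventricle (DMVD 2 libraries, control 4) and the mitral valve (3 and 3). Unnamed rows are labelled by the last digits of their identifier; crosses left of the dotted line mark groups with no level under HIDATA, the triangle a tested row listed at 0, and neither has a position on the axis. The widest gaps are those of rows 719 to 722 in the ventricle, and COX1, ATP8, ATP6 and COX3 have no level in any group.

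In the left ventricle the tested mitochondrial rows were nearly all lower in DMVD. Of 19 tested rows 8 fell, none rose and 11 did not pass, which is 42.1% called lower against 1.16% of all tested rows. An unadjusted p under 0.05 with a lower DMVD value was found for 9 of 19, against 5.51% of all tested rows. Values were lower in DMVD in 18 of 19 rows, against 53.2% of all tested rows, with a median log2 fold change of -1.20. All 8 rows that fell were short unnamed ones, as were 15 of the 19 tested. The tested rows are those under the fragment limit in both groups, so they do not stand for all mitochondrial rows. Adjoining rows can also share reads, so the rows counted here are not independent of one another.

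The largest differences came from 4 neighbouring short rows within positions 5037 to 5347, between ND2 and COX1. Row 719 (positions 5037 to 5105) had 38840 FPKM in DMVD and 416027 FPKM in control ventricle, and fell by 3.42 ± 0.69 on the log2 scale (adjusted p = 0.000106 by the authors' test). Row 720 (5107 to 5178) had 21579 FPKM in DMVD and 189940 FPKM in control, and fell by 3.14 ± 0.64 (adjusted p = 0.000142 by the authors' test). The control values of these 4 rows were the highest of the ventricle table on the FPKM scale, which divides by row length. Each of the 4 spans only 68 to 72 bases, and the part of row length in their differences was not tested. Row 721 (5212 to 5279) had 27034 FPKM in DMVD and 256023 FPKM in control, and fell by 3.24 ± 0.65 (adjusted p = 8.52e-05 by the authors' test). Row 722 (5280 to 5347) had 14646 FPKM in DMVD and 133559 FPKM in control, and fell by 3.19 ± 0.60 (adjusted p = 1.68e-05 by the authors' test). The 4 rows kept the same order in both groups and fell by like amounts, with log2 fold changes from -3.42 to -3.14. The other 15 tested rows had a median of -0.88.

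The other 4 rows that fell also lie beside protein genes. Row 725, between COX1 and COX2 at positions 6966 to 7033, had 1462 FPKM in DMVD and 9586 FPKM in control ventricle, and fell by 2.71 ± 0.60 (adjusted p = 0.000634 by the authors' test). Row 712, between the second long unnamed row and ND1 at 2671 to 2744, had 2284 FPKM in DMVD and 9150 FPKM in control, and fell by 2.0 ± 0.53 (adjusted p = 0.00937 by the authors' test). Rows 716 and 731 were nearer the threshold. Row 716, between ND1 and ND2 at 3844 to 3913, had 3919 FPKM in DMVD and 12514 FPKM in control (-1.68 ± 0.51, adjusted p = 0.0341 by the authors' test). Row 731, between COX3 and ND3 at 9428 to 9495, had 4638 FPKM in DMVD and 14479 FPKM in control (-1.64 ± 0.50, adjusted p = 0.0392 by the authors' test).

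Short rows were also tested elsewhere in the genome. Among 335 tested rows under 200 bases on other chromosomes, 1 was called lower and 1 higher in DMVD ventricle, against 1.16% and 1.92% of all tested rows. Of these 335 rows 138 had a lower DMVD value, against 53.2% of all tested rows, and the median log2 fold change was 0.85. The part of row length in the mitochondrial differences was not tested. The 15 tested short mitochondrial rows, which were not matched with the other short rows in level, had a median of -1.64. Of these, row 708 at the start of the circle (positions 1 to 69) had 241 FPKM in DMVD and 242 FPKM in control ventricle (-0.01 ± 1.20, adjusted p = 1.0 by the authors' test). Row 710, between the long unnamed rows, was the single tested mitochondrial row with a higher DMVD value, 787 FPKM against 640 FPKM in control (0.30 ± 0.88). Row 727, between COX2 and ATP8, had 34954 FPKM in DMVD and 59092 FPKM in control (-0.76 ± 0.42, adjusted p = 0.526 by the authors' test). Rows 737 and 738, between ND4 and ND5, had -0.88 ± 0.75 and -0.67 ± 0.71. Rows 743 and 744 share the span 15323 to 15457 after CYTB. Row 744 had 53849 FPKM in DMVD and 123987 FPKM in control (-1.20 ± 0.51, adjusted p = 0.257 by the authors' test), and row 743 had -0.87 ± 1.41.

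The long unnamed rows and ND3 had smaller differences, none past the threshold. Row 709 had 4381 FPKM in DMVD and 6924 FPKM in control ventricle (-0.66 ± 0.78, adjusted p = 0.941 by the authors' test). Row 711 had 2014 FPKM in DMVD and 4634 FPKM in control (-1.20 ± 0.87, adjusted p = 0.728 by the authors' test). ND3, a membrane subunit of complex I and the single protein gene tested in this tissue, had 43445 FPKM in DMVD and 59097 FPKM in control (-0.44 ± 0.94, adjusted p = 1.0 by the authors' test). Its SE leaves room for a fall as large as that of rows 716 and 731. The unnamed row 733 is listed on the same span as ND3, with 8265 FPKM in DMVD and 17302 FPKM in control, but its SE of 21.41 makes the fold change of -1.07 uninformative.

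For 9 ventricle rows only the DMVD group had a level, and no fold change can be given. Among these complex I and complex III genes, ND1 had 20156 FPKM, CYTB 18814 FPKM, ND2 15734 FPKM, ND6 10736 FPKM and ND5 4144 FPKM in DMVD ventricle. ND6, which is encoded on the opposite strand to the other ND genes, shares its listed span of positions 11778 to 14178 with ND5 and with the unnamed row 741, at 34049 FPKM in DMVD. The unnamed rows that share the spans of ND1 and ND2 were lower, from 583 to 2503 FPKM. COX1, COX2 and COX3, the catalytic core of complex IV, had no level in either ventricle group. Nor had ATP6 and ATP8, the membrane subunits of complex V, ND4 and ND4L of complex I, or rows 724 and 736.

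In the mitral valve nearly every tested row was again lower in DMVD, but none passed the test. Of 31 tested rows 30 had a lower DMVD value, against 45.1% of all tested rows, with a median log2 fold change of -1.24 over the 30 rows above 0 in both groups. By the authors' test with Benjamini-Hochberg adjustment 0 of 31 were called, against 0.419% of all tested rows, and the lowest adjusted p was 0.156. An unadjusted p under 0.05 was found for 5 of the 31 rows (16.1%), all lower in DMVD, against 4.20% of all tested rows in either direction and 1.47% lower. As in the ventricle, the rows are not independent of one another.

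The 8 tested protein genes of the valve had log2 fold changes in a narrow range, from -1.22 to -0.78. ND3 had 9246 FPKM in DMVD and 21524 FPKM in control valve (-1.22 ± 1.06). ND1 had 5522 FPKM in DMVD and 12170 FPKM in control (-1.14 ± 1.78). ND2 had 3975 FPKM in DMVD and 8616 FPKM in control (-1.12 ± 1.58). The DMVD value of each of the 8 was below its control value, and every adjusted p was 1.0. CYTB, which carries the b-type haem groups of complex III, had 5778 FPKM in DMVD and 12182 FPKM in control (-1.08 ± 1.81). ND4L and ND4, read from one overlapping transcript, had 8656 and 7947 FPKM in DMVD against 19597 and 15448 FPKM in control, and their SEs were 7.56 and 2.91. ND5 had 2309 FPKM in DMVD and 4233 FPKM in control (-0.87 ± 2.42), the lowest level of the 8 in both groups. ND6 had 6715 FPKM in DMVD and 11508 FPKM in control (-0.78 ± 3.23). COX2 had 29817 FPKM in DMVD valve and no level in control valve, so its fold change is not known.

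The SE was larger in the median where rows shared a span. Among the 15 tested valve rows with a span of their own and a fold change, row 710 having none, it was 0.82 in the median and at most 1.81, and among the 15 on shared spans with a fold change it was 3.23 in the median and up to 366.81. The statistic in the authors' deposited table is thus close to 0 for most shared rows, whatever their fold change. Row 715 on the span of ND1 had 822 FPKM in DMVD and 3940 FPKM in control valve, a log2 fold change of -2.26 with an SE of 87.48. In the ventricle the median SE was 0.65 over 15 rows alone on their span and 1.18 over 4 shared ones. The ranges overlapped there, 0.42 to 1.20 for rows alone and 0.51 to 21.41 for shared rows.

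Among the mitochondrial rows of the valve, short unnamed ones held the smallest p-values. Row 727 had 5483 FPKM in DMVD and 22566 FPKM in control valve (-2.04 ± 0.63, adjusted p = 0.156 by the authors' test). Row 719 had 17321 FPKM in DMVD and 51335 FPKM in control (-1.57 ± 0.50, adjusted p = 0.193 by the authors' test). Row 716 had 948 FPKM in DMVD and 6072 FPKM in control (-2.68 ± 0.85, adjusted p = 0.197 by the authors' test). These 3 rows and rows 721 and 722 are the 5 with an unadjusted p under 0.05. Row 721 had 12353 FPKM in DMVD and 37164 FPKM in control (-1.59 ± 0.52), and row 722 had 7210 FPKM in DMVD and 19452 FPKM in control (-1.43 ± 0.60). Row 720 had -0.95 ± 0.57. The long rows 709 and 711 had 932 and 457 FPKM in DMVD against 2352 and 1236 FPKM in control valve, with log2 fold changes of -1.34 ± 0.81 and -1.43 ± 0.82. Row 737 was the single one with a higher DMVD value, 532 FPKM against 491 FPKM in control (0.11 ± 1.45). Row 710 was listed at 0 in DMVD and had 118 FPKM in control valve, with an adjusted p of 1.0. Short tested rows on other chromosomes, 392 in the valve, had a median log2 fold change of 0.68.

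**Figure D2:**
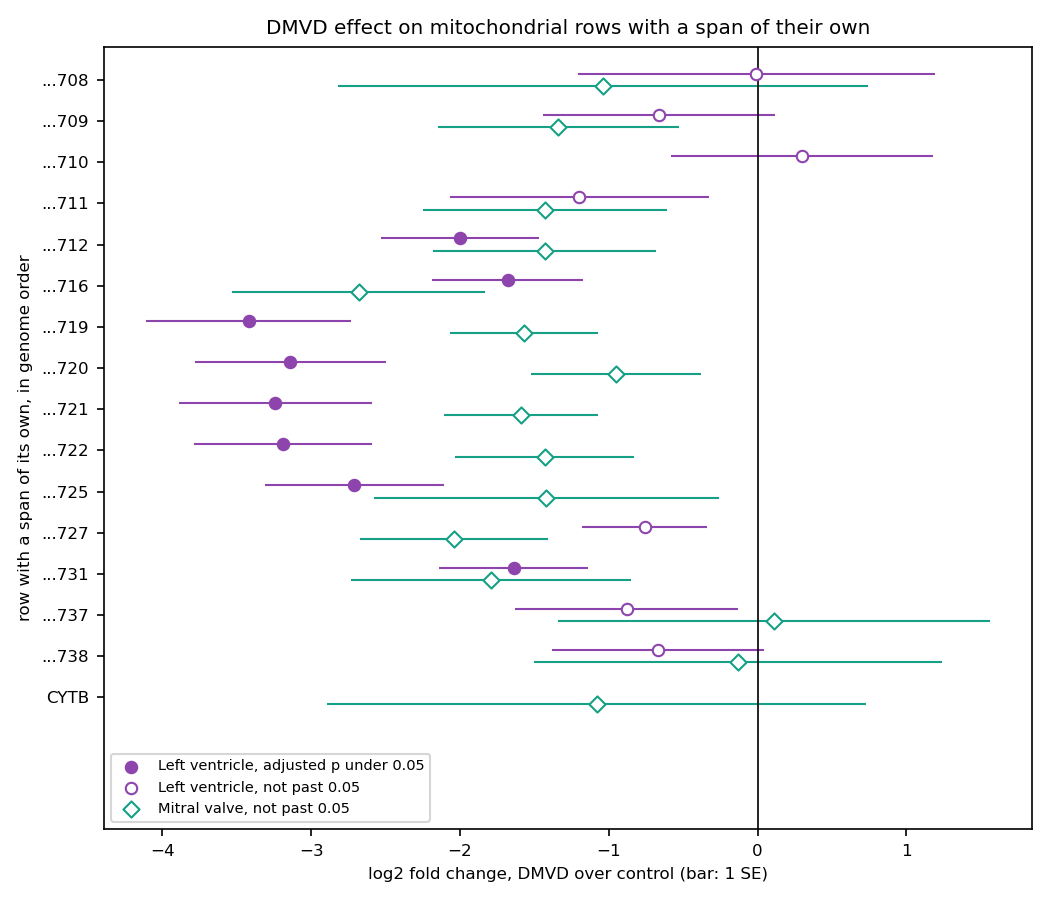
Log2 fold change, DMVD over control, with 1 SE from the authors' statistic, for each row with a span of its own that was tested in the left ventricle (circles; DMVD 2 libraries, control 4) or the mitral valve (diamonds; 3 and 3), in genome order. Filled symbols mark the 8 ventricle rows with an adjusted p under 0.05; row 710 has no valve symbol because its DMVD value is listed at 0.

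The DMVD effects of the tissues were compared row by row, valve minus ventricle, over 13099 genes tested in both, of which 0.107% passed an adjusted p of 0.05. Of the 18 mitochondrial rows compared 0 passed (normal p of the difference, Benjamini-Hochberg), and 4 had an unadjusted p under 0.05, against 2.66% of all genes. Those 4 were the neighbours between ND2 and COX1, whose log2 fold changes were nearer 0 in the valve, where none of them was called. Row 720 differed by 2.19 ± 0.86, row 719 by 1.85 ± 0.85, row 722 by 1.76 ± 0.85 and row 721 by 1.65 ± 0.83, all with an adjusted p of 1.0. At the other end row 727 differed by -1.28 ± 0.76. The 18 differences were split evenly, 9 above and 9 below 0, with a median of -0.01. Of the same 18 rows 17 had lower DMVD values in both tissues. The tissues share dogs, so the comparison treats as independent what is partly not.

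The tables were normalised separately, so levels can only be set side by side. Over the 19 rows tested in both tissues the median level was 4638 FPKM in DMVD ventricle and 14479 FPKM in control ventricle, beside 1261 FPKM in DMVD valve and 5298 FPKM in control valve. Across the tested rows the order of the levels was alike in DMVD and control, with a Spearman rho of 0.92 over 19 rows in the ventricle and 0.96 over 30 rows in the valve, where both values of a row share its length and its neighbours.

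The mitochondrial rows made up a smaller part of the summed FPKM in DMVD in most of the sums taken. Over all rows, the planned sum, they held 35.7% in DMVD and 70.1% in control ventricle, and 22.3% in DMVD and 39.2% in control valve. The planned sum counts rows under HIDATA with the levels they have, so a 0 there adds nothing although it is not a level. In the ventricle this leaves out all 18 such mitochondrial rows in control but only 9 of them in DMVD. Sums over tested rows alone were chosen after seeing the data. Counted so, the rows held 28.8% in DMVD and 70.1% in control ventricle, and 19.2% in DMVD and 39.3% in control valve. Most of the control ventricle share came from rows 719 to 722, which summed to 102098 FPKM in DMVD and 995549 FPKM in control. With mitochondrial rows shorter than 200 bases left out and all other tested rows kept, the share was 7.91% in DMVD and 13.4% in control ventricle, and 11.2% in DMVD and 22.9% in control valve. If rows under HIDATA are counted as in the planned sum, the ventricle order turns after the same short mitochondrial rows are left out. The share is then 19.5% in DMVD and 13.4% in control, and 9 mitochondrial rows under HIDATA have a level in DMVD alone. Because FPKM is divided by row length, a fragment of a short row adds more to such a sum than a fragment of a long row, and the share is not a share of fragments.

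The nuclear partners of the mitochondrial subunits had values near control in the ventricle and below control in the valve, a difference between tissues that was not tested for the lists. Of 54 tested rows listed as nuclear subunits of complexes I, III, IV and V, 0 were called in either tissue by the authors' test with Benjamini-Hochberg adjustment. NDUFS8 stands at 2 loci among them, and ATPIF1, an inhibitor of the ATP synthase, was listed with complex V. Rows were matched by name alone. Some have very short spans, such as the row named COX7B at positions 25587168 to 25587410 of chromosome 17. Whether each row is the gene itself or a copy at another locus was not tested. In the ventricle 20 of 54 had a lower DMVD value, against 53.2% of all tested rows, with a median log2 fold change of 0.08 and 0 with an unadjusted p under 0.05, against 11.3%. In the valve all 54 had a lower DMVD value, against 45.1% of all tested rows, with a median of -0.71. An unadjusted p under 0.05 was found for 2 of the 54, a share near the 4.20% of all tested rows. Among these 54 rows the smallest p-values in the valve were those of UQCRC1 and COX7B. UQCRC1, a core subunit of complex III, had 95.5 FPKM in DMVD and 210 FPKM in control (-1.14 ± 0.50, adjusted p = 0.837 by the authors' test). COX7B of complex IV had 1386 FPKM in DMVD and 2775 FPKM in control (-1.0 ± 0.47, adjusted p = 0.978 by the authors' test). The smallest p of complex I was that of NDUFB3, an accessory subunit (335 FPKM in DMVD, 610 FPKM in control valve, -0.87 ± 0.45), and that of complex V was that of ATP5J, a subunit of the peripheral stalk (600 FPKM in DMVD, 1104 FPKM in control valve, -0.88 ± 0.45). Set by complex, the valve median was -0.64 for 31 nuclear rows of complex I, beside -1.22 to -0.78 for its mitochondrial ND genes. For 8 nuclear rows of complex III it was -0.81, beside -1.08 for CYTB. The medians were -0.82 for 8 rows of complex IV and -0.73 for 7 of complex V, whose mitochondrial subunits had no fold change.

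**Figure D3:**
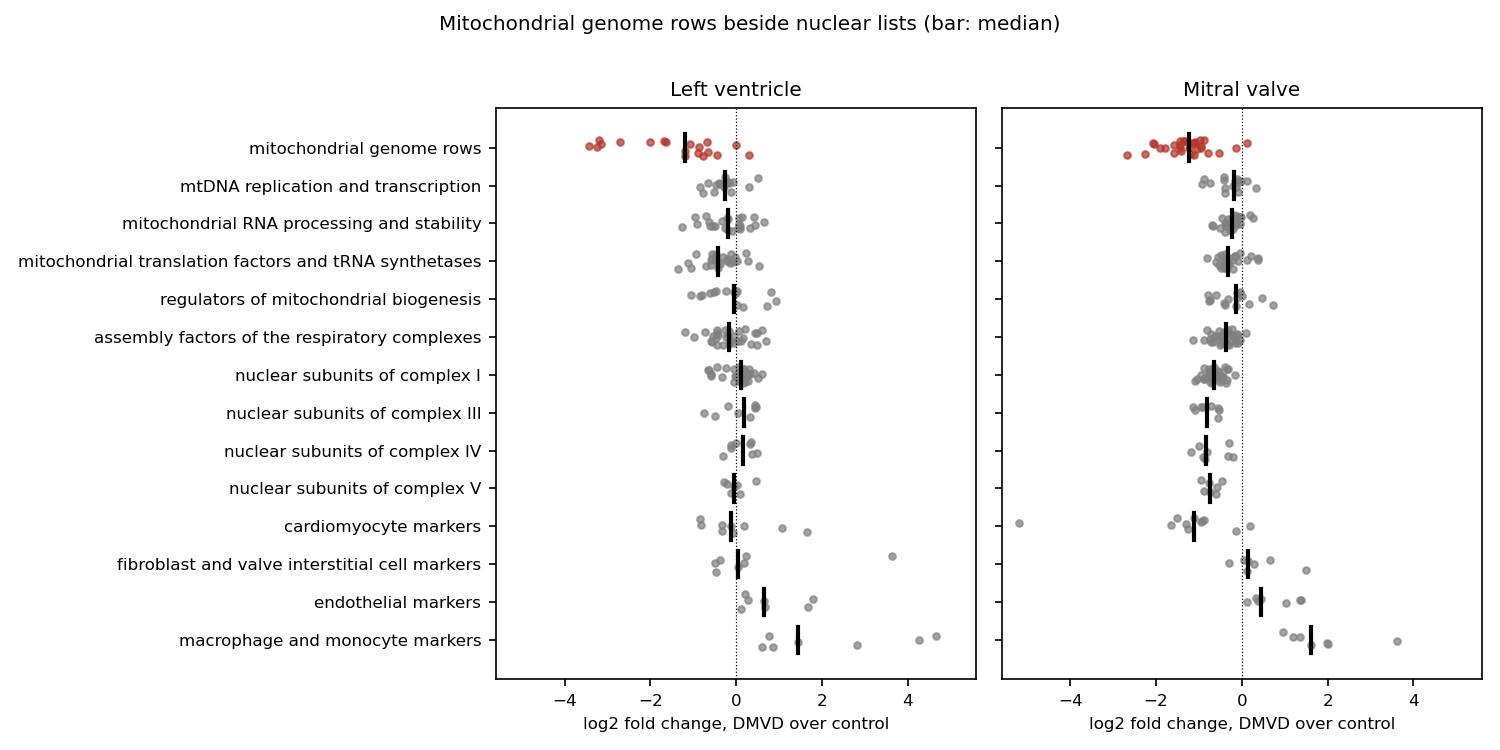
Log2 fold changes, DMVD over control, in the left ventricle (left) and mitral valve (right). Tested mitochondrial genome rows are at the top in red and nuclear gene lists in grey, with 1 point per tested row. Bars mark medians. The mitochondrial rows have medians of -1.20 and -1.24, and the nuclear subunits of the respiratory complexes lie around 0 in the ventricle and below 0 in the valve.

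Genes that copy, read and process the mitochondrial genome were not called. Over 111 tested genes of 5 lists (replication and transcription, RNA processing, translation and transfer RNA charging, biogenesis, assembly factors) 0 passed in either tissue. In the ventricle 7 had an unadjusted p under 0.05 (6.31%, against 11.3% of all tested rows), with 78 of 111 lower in DMVD and a median of -0.22. In the valve 2 had one (1.80%, against 4.20%), with 98 of 111 lower and a median of -0.30. TFAM, which packages mitochondrial DNA and starts its transcription, had 8.12 FPKM in DMVD and 11.5 FPKM in control ventricle (-0.51 ± 0.50), and 5.90 FPKM in DMVD and 9.91 FPKM in control valve (-0.75 ± 0.67). The transcription factor TFB2M had 20.3 FPKM in DMVD and 38.6 FPKM in control valve (-0.93 ± 0.45, adjusted p = 1.0 by the authors' test). Among genes acting on transfer RNA, LARS2, the mitochondrial leucyl-tRNA synthetase, had 0.770 FPKM in DMVD and 1.97 FPKM in control ventricle (-1.36 ± 0.48, adjusted p = 0.102 by the authors' test). ELAC2, which cuts the 3′ ends of transfer RNAs out of the precursor, had 2.05 FPKM in DMVD and 3.87 FPKM in control ventricle (-0.91 ± 0.49, adjusted p = 0.497 by the authors' test). TACO1, an activator of COX1 translation, had 8.25 FPKM in DMVD and 19.0 FPKM in control ventricle (-1.20 ± 0.47, adjusted p = 0.173 by the authors' test). The regulators of biogenesis had medians of -0.04 in the ventricle and -0.14 in the valve, with 9 and 11 of 15 lower in DMVD. The PGC-1 related coactivator PPRC1 had higher DMVD values in both (0.93 ± 0.47 and 0.73 ± 0.50). PPARGC1B of the same family had lower ones in both (-1.04 ± 0.53 and -0.61 ± 0.75). PPARGC1A was higher in DMVD ventricle (0.73 ± 0.43) and lower in DMVD valve (-0.40 ± 0.47).

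Markers of heart muscle mostly had lower DMVD values in the valve, as the mitochondrial rows had. Of 17 listed cardiomyocyte markers 11 matched a name. Their summed level over 11 tested genes was 14277 FPKM in DMVD and 28169 FPKM in control valve. Values were lower in DMVD for 10 of 11, with a median log2 fold change of -1.11, and 1 was called lower (0.108% of all tested rows), the ventricular light chain MYL3 (36.6 FPKM in DMVD, 1335 FPKM in control, -5.19 ± 0.68, adjusted p = 2.64e-10 by the authors' test). In the ventricle the sum over 9 tested markers was 37262 FPKM in DMVD and 41249 FPKM in control, with a median of -0.11 and none called. MYH7 and CKM had no level in control ventricle, under HIDATA. Some macrophage and erythroid markers rose in DMVD, where 1.92% of all tested rows were called higher in the ventricle and 0.311% in the valve. The macrophage list summed to 201 FPKM in DMVD and 17.1 FPKM in control ventricle, with 3 of 7 called higher (S100A8, S100A9 and FCGR1A), and to 73.0 FPKM in DMVD and 23.8 FPKM in control valve, with 1 of 7 called higher (S100A9). S100A8 and S100A9, calgranulins that neutrophils also express, carried most of the ventricle sum, S100A8 with 150 FPKM in DMVD and 5.96 FPKM in control, and S100A9 with 24.3 FPKM in DMVD and 1.26 FPKM in control. The macrophage scavenger receptor CD163 had 11.4 FPKM in DMVD and 4.19 FPKM in control ventricle, and it, CD68, AIF1 and MSR1 did not pass in either tissue. The endothelial list had medians of 0.64 in the ventricle, with 2 of 7 called higher, and 0.45 in the valve, with none called. The fibroblast and valve interstitial list had medians of 0.05 in the ventricle, with 1 of 7 called higher, and 0.14 in the valve, with none called. The erythroid list had 4 of 5 called higher in the ventricle and 1 of 4 in the valve. The part of these cells in the mitochondrial results was not tested, and in bulk tissue fewer cells of a type and less RNA per cell cannot be told apart.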

How the data were processed

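Per the labels, a fibrous tissue kit gave the RNA, and TruSeq libraries were made from it. Per the submitters' processing notes, cutadapt, Bowtie, TopHat and CanFam3.1 were used; which program made the values is not given in these sources. Per the file headers, the authors deposited one table per tissue with one FPKM value per group, a log2 fold change of control over DMVD, a test statistic (a score of opposite sign, with placeholders at groups listed at 0), a p-value and a status. The layout is that of a Cuffdiff gene table, which is how the unit was read.

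Each log2 fold change was taken anew, DMVD over control. Reading the deposited statistic as a normal deviate gives the deposited p within 2.84e-06 in the ventricle and 2.64e-06 in the valve, so the SE was the size of the fold change over that of the statistic. Adjustment was Benjamini-Hochberg over rows with status OK, checked on simulated statistics. The members and lists were chosen with earlier results of these data known. All members are described; no pathway gene passed 0.05, and from each pathway list at least 1 of the 3 genes with the smallest p in a tissue is named. Of 280 list names 204 matched, 10 of the table's names being UniProt entry names translated. Python 3.11.15, numpy 2.4.6, pandas 2.3.3 and scipy 1.17.1 were used.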

Additional observations from a re-analysis of the deposited data

How the results depend on the processing

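With rows under a mean of 1 FPKM left out of the adjustment, 386 genes were called in the ventricle and 62 in the valve, and the mitochondrial rows called stayed at 8 and 0. Adding 1 FPKM to both groups, or centring on the median of tested genes averaging 5 FPKM or more (0.06 in the ventricle, 0.03 in the valve), moved no mitochondrial row by more than its SE and turned no direction. Centring called 0 rows in valve minus ventricle. The share of summed FPKM depended on which rows were summed. It was 35.7% in DMVD and 70.1% in control ventricle, and 22.3% in DMVD and 39.2% in control valve, over all rows. Without mitochondrial rows shorter than 200 bases it was 19.5% in DMVD and 13.4% in control ventricle, and 15.0% in DMVD and 22.8% in control valve. In both of these sums a 0 under HIDATA adds nothing, although it is not a level. Summing only tested rows, an alternative chosen after seeing the data, gave 28.8% in DMVD ventricle and 19.2% in DMVD valve, and with the short rows also left out 7.91% in DMVD and 13.4% in control ventricle, and 11.2% in DMVD and 22.9% in control valve. Libraries could not be left out in turn, because the tables hold group values. No paired analysis was possible because the columns carry no replicate, and the numbers name different dogs in DMVD and control.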
